A study of Mus musculus with 6 samples.

Results

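Selenoprotein transcripts were followed in germinal centre B cells of mouse spleen that carried or lacked the gene Basp1. The members are 10 genes taken by name: Sepp1 (now Selenop), Gpx1, Gpx4, Txnrd1, Txnrd2, Sepw1 (Selenow), Selk (Selenok), Selt (Selenot), Sep15 (Selenof) and Sephs2. They are 10 of 23420 genes listed in each library and 10 of the 10133 that were expressed highly enough to be tested. The files list 9 of them under these symbols and Selt as 2810407C02Rik, which RefSeq gives as its synonym. The set was selected on the measured KO minus WT differences, above all that of Sepp1, so those differences are described here and carry no test.

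Messenger RNA came from sorted germinal centre B cells, the dividing B cells in which antibody genes are mutated and selected. The spleens were taken at day 10 of a response to NP-KLH, the hapten NP on the carrier protein KLH, given into the peritoneum. The KO group had the genotype BASP1 fl/fl hCD20TamCre+/- and the WT group BASP1 +/+ hCD20TamCre+/-, with 3 libraries each. Both groups therefore carried the same Cre recombinase, which the CD20 promoter directs to B cells and which tamoxifen switches on, and mice of both groups received 1 mg of tamoxifen on day 5, day 7 and day 9. Strain background and age are not given in the sources used here, nor is it said that each library came from its own mouse, so spread between libraries may be partly technical. Basp1, a myristoylated membrane protein and transcriptional co-repressor, was at 44.8, 59.5 and 46.1 CPM (read counts relative to the library total) in WT libraries 1 to 3. In the KO libraries it was at 9.65, 7.27 and 9.39 CPM, so a part of the signal remained and the groups did not overlap.

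Each library lists log2 CPM, already scaled by the authors, whose linear values add up to 997617 at the lowest and 1000513 at the highest; the read depth is unknown. For every gene the WT and KO values of a replicate number had the same sum to within 0.001, so that the difference between numbers had been taken out. In what follows a difference is KO minus WT in log2 CPM within a replicate number, given as the mean over 3 pairs with its SD. Because of the equal sums, the groups of a gene do not overlap whenever all 3 pairs go the same way, and WT and KO libraries have nearly equal SDs. The markers of germinal centre B cells fixed for the check of the label were all expressed: 11 of 11 lay at 1 CPM or more, and their sum was 9320 to 9530 CPM in WT and 8930 to 9130 CPM in KO.

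Selenoproteins contain selenocysteine, a cysteine-like amino acid with selenium in place of sulphur, which is mostly the catalytic residue. Its codon is UGA (TGA in DNA), otherwise a stop signal, and a stem-loop in the 3′ untranslated region with its binding protein tells the ribosome to read it as selenocysteine. When selenium is short such a codon is read as a stop more often, and where it lies well upstream of the last exon junction the transcript can be degraded by nonsense-mediated decay. The family includes peroxidases, reductases and proteins of the endoplasmic reticulum, and in lymphocytes it is known for holding peroxides in check.

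The selenocysteine codons are shown because they define the family and because their number and place set Sepp1 apart from the other members. The sequences run 5′ to 3′ on the coding strand of the GENCODE M21 transcripts (GRCm38, the build called mm10), with up to 12 coding bases on each side and the selenocysteine codon in capitals.
Sepp1, the first of 10: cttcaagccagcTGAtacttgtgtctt
Gpx1: gtcgcgtctctcTGAggcaccacgatc
Gpx4: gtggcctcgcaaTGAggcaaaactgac
Txnrd1: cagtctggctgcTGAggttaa
Txnrd2: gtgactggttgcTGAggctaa
Sepw1: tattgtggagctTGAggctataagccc
Selk: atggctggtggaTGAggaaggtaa
Selt: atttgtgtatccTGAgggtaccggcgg
Sep15: gaagtctgcggaTGAaaattggggagg
Sephs2: ggcatgaagggcTGAggctgcaaggtc

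In 8 of the 9 members with a single selenocysteine codon the base after it is G, and Sep15, with A, is the exception. In both thioredoxin reductases the codon is the next to last of the reading frame, codon 498 of 499 in Txnrd1 and codon 526 of 527 in Txnrd2, and the same holds nearly for Selk, with codon 92 of 94. The other single-codon members carry it in the body of the protein, at codon 47 of 201 in Gpx1, 73 of 197 in Gpx4, 13 of 88 in Sepw1, 49 of 195 in Selt, 93 of 162 in Sep15 and 63 of 452 in Sephs2.

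Sepp1 has 10 such codons in a reading frame of 380. The first is codon 59 in exon 2, at position 3274848 to 3274850 of chromosome 15, and the other 9 lie in exon 5, the last. Its last 7 fall within 192 bases that end with the stop codon, chr15:3279519-3279710 on the plus strand, printed to show how closely they follow each other:
Sepp1, selenium-rich end: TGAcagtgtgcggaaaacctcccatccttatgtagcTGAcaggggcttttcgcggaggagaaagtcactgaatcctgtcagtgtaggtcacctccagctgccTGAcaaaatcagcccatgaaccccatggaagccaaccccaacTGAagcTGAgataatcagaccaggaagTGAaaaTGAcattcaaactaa
This is the part of selenoprotein P that carries most of the selenium. Of its 10 codons 5 are followed by C and 2 by G, unlike the single codons of the other members.

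**Figure D1:**
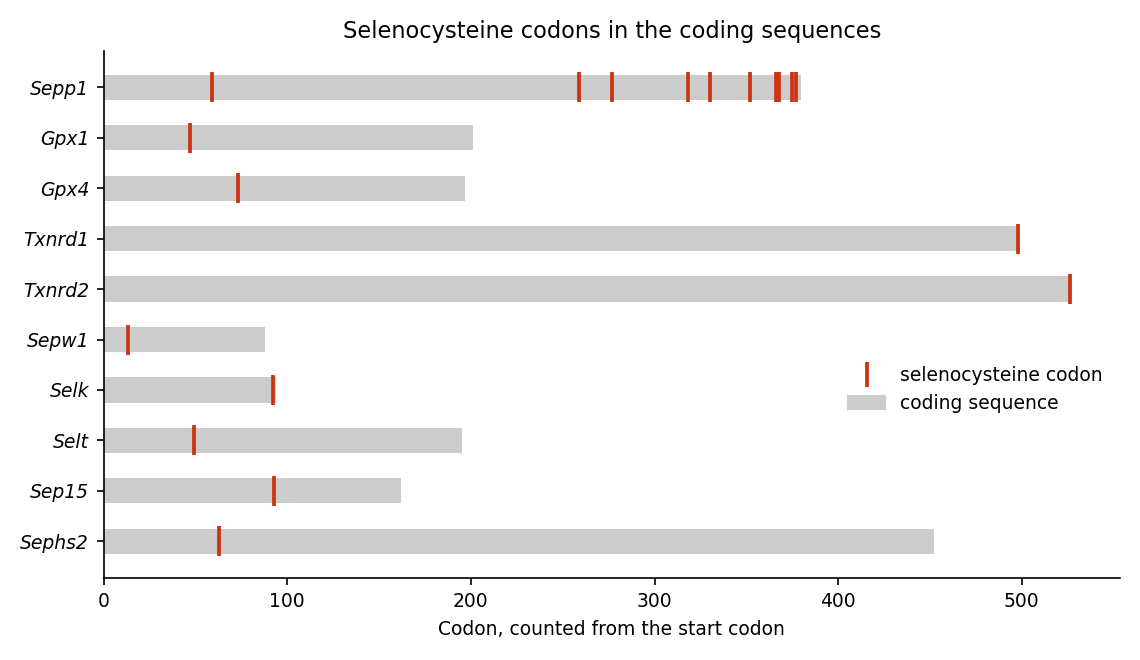
Coding sequences of the 10 members as grey bars, in codons from the start codon on the x axis, with each selenocysteine codon as a red tick. Sepp1 has 10 ticks, of which 9 lie from codon 259 on, and every other member has 1.

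The members spanned a wide range of levels, which can be compared between genes only per transcript length. With the longest protein-coding transcript of each gene as its length, the mean over the 6 libraries ran from 1000 ± 50.5 CPM per kb (SD, n = 6) for Gpx1, the cytosolic peroxidase that reduces hydrogen peroxide, to 10.9 ± 0.83 CPM per kb for Txnrd2, the mitochondrial thioredoxin reductase, a ratio of 91.5. Sepw1, a small redox protein with a thioredoxin-like fold, came after Gpx1 at 432 ± 8.64 CPM per kb, and Sep15, an ER protein that binds the glycoprotein folding sensor UGGT, followed at 203 ± 6.94. Gpx4, the peroxidase of membrane lipids, stood at 147 ± 6.58, Selk, an ER membrane protein, at 97.6 ± 3.30, and Sephs2, the enzyme that makes the selenium donor for selenocysteine, at 83.5 ± 5.02. Then came Sepp1, the secreted selenium carrier, at 65.3 ± 13.1 CPM per kb, Txnrd1, the cytosolic thioredoxin reductase, at 21.5 ± 1.02, and Selt, an ER oxidoreductase, at 17.2 ± 1.61.

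Of the 9 neighbouring pairs in this order, the ranges over the 6 libraries overlapped only for Sephs2 and Sepp1. In WT these were 80.2 ± 3.74 and 76.2 ± 6.96 CPM per kb (SD, n = 3), and in KO 86.8 ± 4.01 and 54.4 ± 4.78. These SDs leave out whatever differed between replicate numbers. With the coding length in place of the transcript length only 6 of the 10 kept their place in the order. The 3 highest were Gpx1, Sepw1 and Sep15 with either length and also with the median transcript length. Together the 10 members took 2467 to 2615 CPM in WT and 2363 to 2503 in KO, so that their sums overlapped. Sepp1 made up 7.03%, 5.97% and 5.89% of that sum in WT libraries 1 to 3, and 4.11%, 4.85% and 4.92% in the KO libraries.

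**Figure D2:**
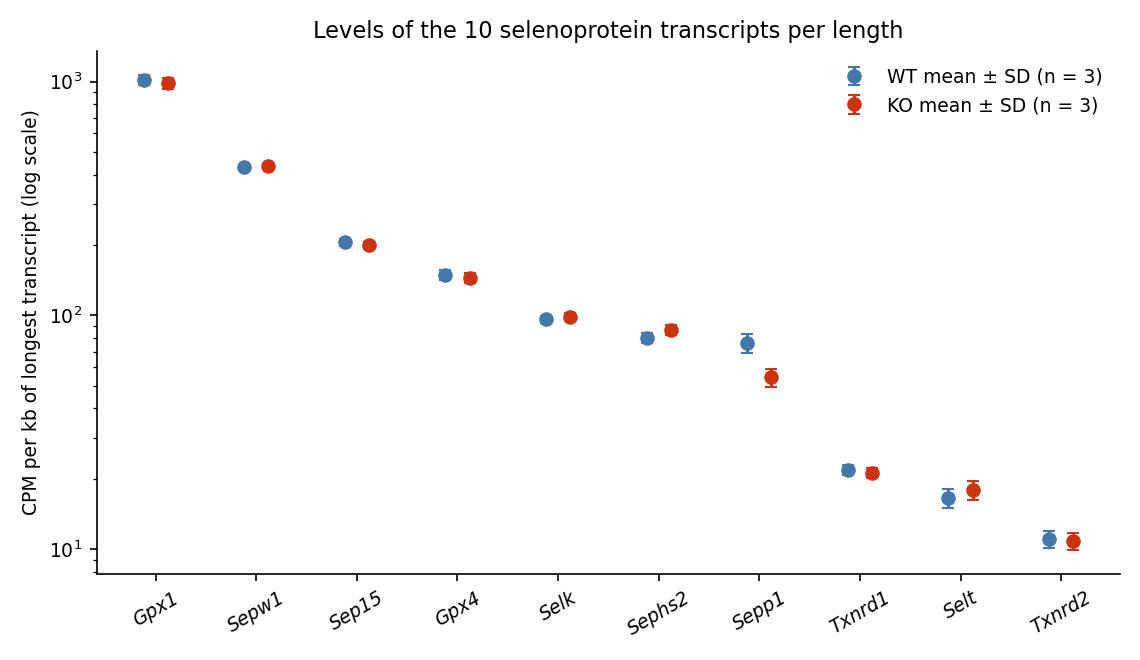
Mean level of each member in WT (blue) and KO (red) in CPM per kb of the longest transcript on a log axis, with the SD over 3 libraries as bars. The order runs from Gpx1 at 1000 CPM per kb to Txnrd2 at 10.9 CPM per kb over all 6 libraries.

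Sepp1 was the member whose groups were apart. It is encoded on the plus strand of chromosome 15 from 3268547 to 3280508, in 5 exons, and its product delivers selenium to cells through receptors of the LDL receptor family. Its values were 7.45, 7.20 and 7.27 log2 CPM in WT libraries 1 to 3 and 6.68, 6.93 and 6.86 in the KO libraries. All 3 KO libraries lay below all 3 WT libraries, and number 1 held both the highest WT and the lowest KO value. As geometric means this was 158 CPM in WT and 113 CPM in KO, a ratio of KO to WT of 0.714.

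The paired differences of Sepp1 were -0.776, -0.278 and -0.404, with a mean of -0.49 ± 0.26 (SD, n = 3 pairs). Pair 1 contributed the most, and without it the mean was -0.34. The spread of its pairs was itself wide, larger than that of 94.5% of the 1234 tested genes within 0.5 log2 units of its level, whose median SD was 0.117. Sepp1 was 1 of the 27 genes called in the limma fit over all genes at 5% FDR, which is 0.266% of those tested, and 1 of the 10 called lower in KO (0.0987%); another 17 (0.168%) were called higher, none of them a member. Sepp1 was chosen for this, so nothing is read from that count. It was no longer called without pair 1, without the variance trend, or with no replicate block, where the fit called 142 genes. A fit with no block overlooks that the replicate effect had already been taken out of the values. No other member was called, in the fit as reported or in any of its 11 alternatives.

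The other 9 members differed by at most 0.11 in size on average, and each had at least 1 pair on either side of zero, so their groups overlapped. Sepp1 was thus the 1 member of 10 whose groups did not overlap, while 12.5% of all tested genes had KO wholly below WT and 15.2% had KO wholly above it, 27.7% together. The mean difference was negative for 6 members and positive for 4. Without replicate 3 it was negative for 3 (Sepp1, Txnrd1 and Sepw1), as Gpx1, Gpx4, Txnrd2 and Sep15 turned positive and Sepw1 negative. The median over the 10 was -0.037, beside 0.004 over all tested genes.

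**Figure D3:**
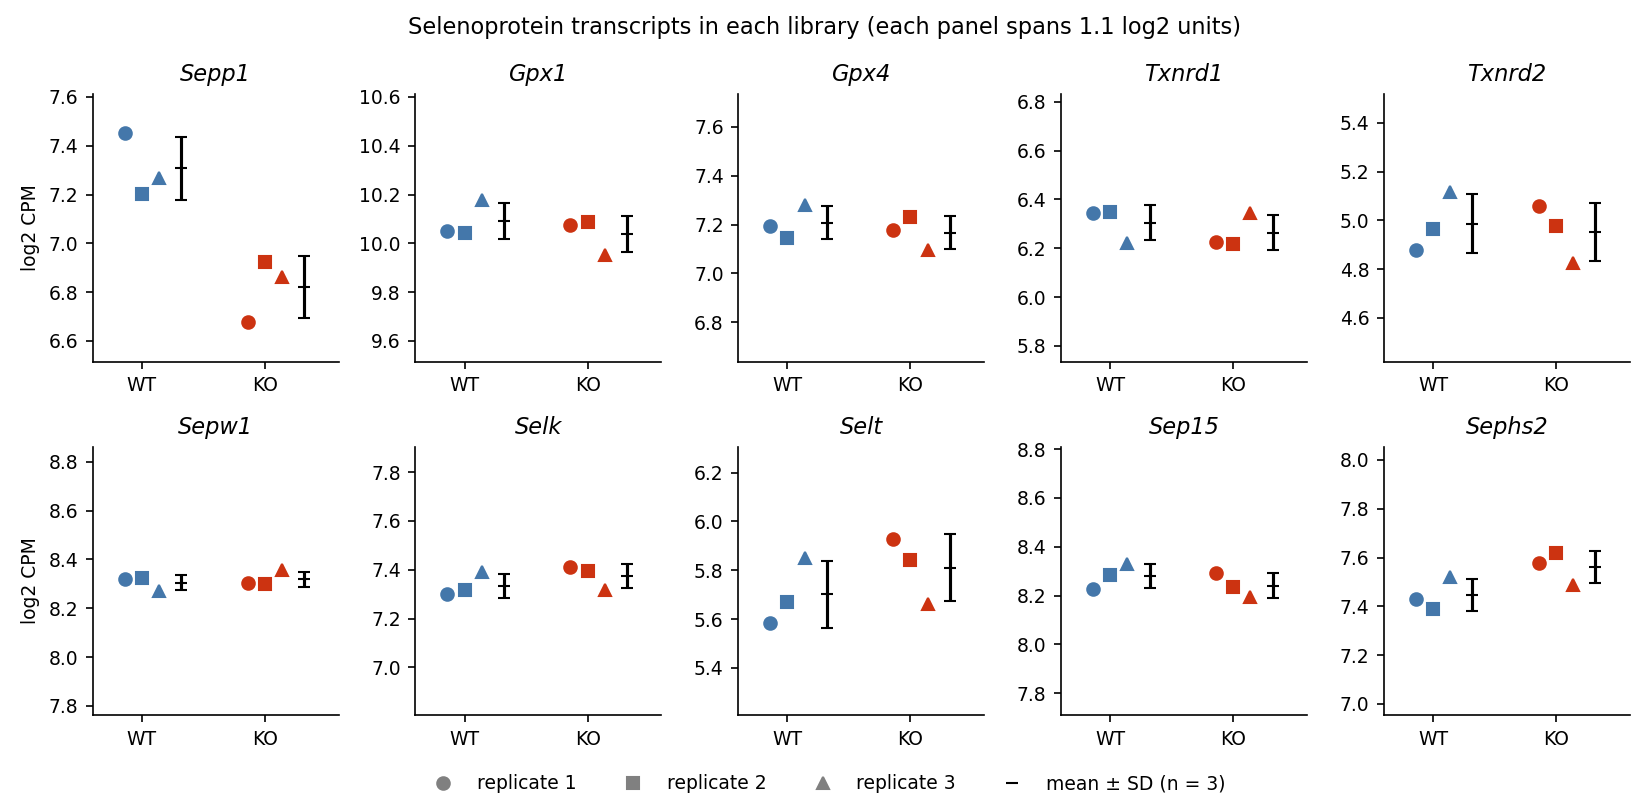
log2 CPM of each member in every library, WT in blue and KO in red, with a marker shape for each replicate number and the mean ± SD (n = 3) in black. Each panel spans the same 1.1 log2 units, and Sepp1 is the panel in which the KO libraries all lie below the WT libraries.

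Among the glutathione peroxidases, Gpx1 (chromosome 9, 108338903 to 108340343) was at 10.05, 10.04 and 10.18 log2 CPM in WT libraries 1 to 3 and at 10.08, 10.09 and 9.95 in the KO libraries. Its mean difference was -0.05 ± 0.15 (SD, n = 3 pairs), and only pair 3 was lower in KO. Gpx4 (chromosome 10, 80047166 to 80056439), which reduces lipid hydroperoxides and so guards cells against ferroptosis, was at 7.20, 7.15 and 7.28 in WT and at 7.18, 7.23 and 7.09 in KO. It differed by -0.04 ± 0.14, with pairs 1 and 3 lower and pair 2 higher. For both peroxidases the largest difference was in pair 3, -0.225 for Gpx1 and -0.186 for Gpx4.

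The thioredoxin reductases recycle thioredoxin, the small protein that keeps ribonucleotide reductase and peroxiredoxins reduced. Txnrd1 (chromosome 10, 82833951 to 82897712) was at 6.34, 6.35 and 6.22 log2 CPM in WT and at 6.22, 6.22 and 6.35 in KO. It differed by -0.04 ± 0.14, and here pair 3 was the one that was higher in KO. Txnrd2 (chromosome 16, 18426384 to 18479073) was at 4.88, 4.96 and 5.12 in WT and at 5.06, 4.98 and 4.82 in KO. Its difference of -0.03 ± 0.24 joined 0.183 in pair 1 with -0.292 in pair 3, so the mean near zero came from pairs that went opposite ways.

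Sepw1 (chromosome 7, 15917208 to 15922402) was the steadiest member, with 8.32, 8.33 and 8.27 log2 CPM in WT and 8.30, 8.30 and 8.36 in KO. Its difference was 0.02 ± 0.06, and 21.8% of the 583 tested genes of like level had a smaller SD. Over its 6 libraries Sepw1 ranged over 0.086 log2 units, against 0.776 for Sepp1.

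Selk, Selt and Sep15 are proteins of the endoplasmic reticulum. Selk (chromosome 14, 29968308 to 29975662), which is known to partner the palmitoyl transferase Zdhhc6 and to support calcium flux in immune cells, was at 7.30, 7.32 and 7.39 log2 CPM in WT and at 7.41, 7.39 and 7.32 in KO, a difference of 0.04 ± 0.10. Selt (chromosome 3, 58576636 to 58593133) was at 5.58, 5.67 and 5.85 in WT and at 5.93, 5.84 and 5.66 in KO. It differed by 0.11 ± 0.27, with the widest spread of all members and 0.346 in pair 1 against -0.186 in pair 3. Sep15 (chromosome 3, 144570304 to 144597680) was at 8.23, 8.28 and 8.33 in WT and at 8.29, 8.24 and 8.19 in KO, a difference of -0.04 ± 0.10.

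Sephs2 (chromosome 7, 127271879 to 127274055) is both a selenoprotein and the enzyme that makes selenophosphate, the selenium donor of the whole family. It was at 7.43, 7.39 and 7.52 log2 CPM in WT and at 7.58, 7.62 and 7.49 in KO. Its difference of 0.11 ± 0.13 was the largest of the 9 in size, together with that of Selt, and was positive in pairs 1 and 2 and -0.032 in pair 3. The groups overlapped.

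The 9 members beside Sepp1 changed sides with the replicate number. In pair 1 and in pair 2 there were 3 of 9 lower in KO, and in pair 3 there were 7 of 9, all but Txnrd1 and Sepw1. The median of all 10 members was 0.044 in pair 1, 0.027 in pair 2 and -0.160 in pair 3, while the median of all tested genes was 0.003, 0.011 and 0.004. Members of 1 library share that library, so these counts describe 3 pairs and not independent measurements.

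**Figure D4:**
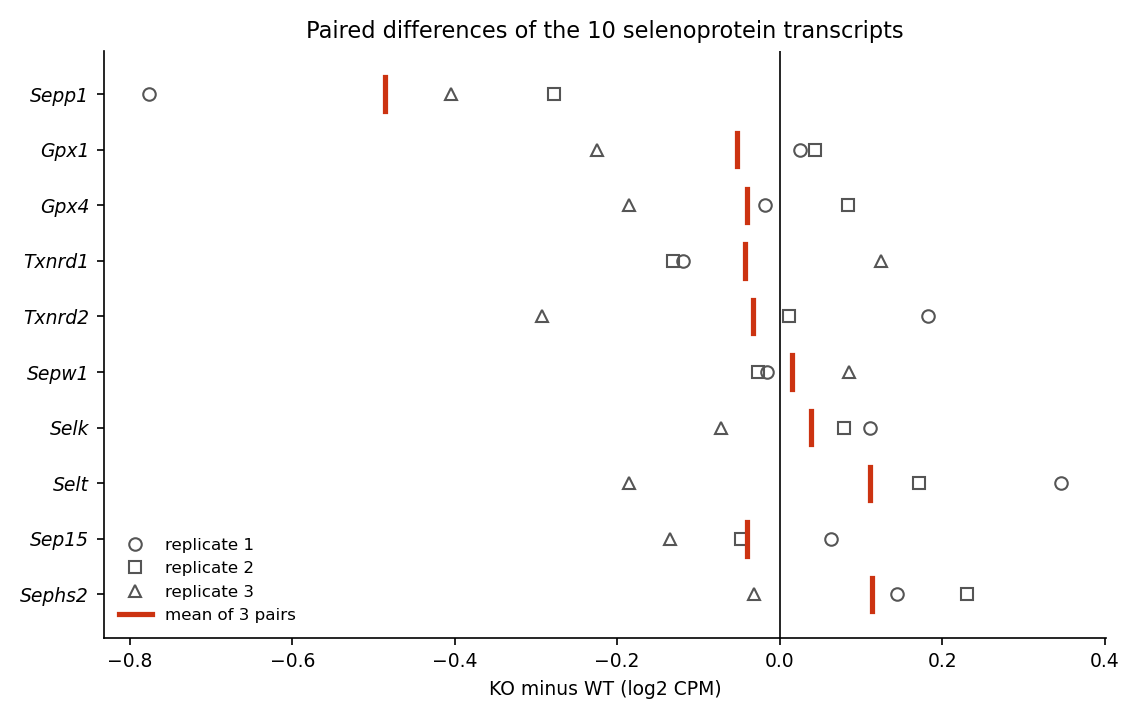
KO minus WT in log2 CPM on the x axis for each member, with a symbol per replicate number and the mean of 3 pairs as a red bar. All 3 pairs of Sepp1 lie below zero, from -0.776 to -0.278, and for the other members except Gpx4 the triangle of replicate 3 lies on the other side of zero from replicate 1.

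The place of the selenocysteine codon, on which the transcript's exposure to nonsense-mediated decay depends, was set beside these differences. A distance of more than 50 bases between the codon and the last exon junction was taken as the limit. It was met by 6 members: by Selt with 470 bases, Sepp1 with 357 for its first codon, Gpx4 with 342, Sepw1 with 243, Gpx1 with 105 and Sep15 with 78. In Txnrd1 and Txnrd2 the codon lies in the last exon, in Selk 5 bases before the junction, and Sephs2 has a single exon. The 6 members that met the limit differed by -0.486 (Sepp1) to 0.111, and the 4 that did not by -0.042 to 0.114. These are the differences on which the members were selected, and the part of the codon's place in them was not tested.

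The other selenoproteins of the mouse were not members and could be tested. Of 14 on the list 13 are listed in the files and 7 were tested; limma called 0 of them over all genes, and 0 had an unadjusted p under 0.05, beside 8.82% of all tested genes. The best expressed were 2700094K13Rik (Selenoh), a nuclear protein, at 242 CPM with a difference of -0.03 ± 0.16, and Vimp (Selenos), a partner of the ER degradation channel, at 105 CPM with 0.005 ± 0.077. Ept1 (Selenoi), an enzyme of phosphatidylethanolamine synthesis, differed by 0.14 ± 0.16 at 20.9 CPM and was higher in all 3 pairs (limma adjusted p = 0.815). Selo, listed as 1300018J18Rik, differed by -0.04 ± 0.09 at 18.6 CPM. Sepn1, which acts in ER calcium handling, differed by 0.14 ± 0.08, also positive in all 3 pairs, the methionine sulphoxide reductase Msrb1 by -0.08 ± 0.19 and Txnrd3 by 0.30 ± 0.59, all 3 below 8 CPM. Groups wholly apart, as for Ept1 and Sepn1, were seen in 27.7% of all tested genes, with KO the higher in 15.2%. Gpx2 and Dio3 were at -5.063 log2 CPM, the most frequent value in the files, in all 6 libraries, and Gpx3, Dio1, Dio2 and Selm stayed below 1 CPM in every library.

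The machinery that makes and inserts selenocysteine, with the receptors that take up selenoprotein P, was examined as a list of 18 genes, of which 15 were tested. Limma called 0 of the 15, and 2 had an unadjusted p under 0.05, both lower in KO. These were Upf1, the helicase of nonsense-mediated decay, with -0.40 ± 0.38 (SD, n = 3 pairs; limma adjusted p = 0.149), and the nucleolar protein Ncl, which binds selenoprotein messages, with -0.20 ± 0.20 (adjusted p = 0.236). Pair 1 of Upf1 went the other way, with 0.032 against -0.664 and -0.578, and Upf1 was called without replicate 1. Ncl was called without replicate 3. Over all 10133 tested genes the fit without replicate 1 called 136 and that without replicate 3 called 99, against 27 with all pairs. Nothing is therefore read from these 2 calls. Secisbp2l, a paralogue of the stem-loop binding protein, differed by -0.20 ± 0.32. The list's median was -0.044, beside 0.004 over all tested genes. The uptake receptors Lrp8, Lrp2 and Lrp1 had means below 1 CPM and were not tested. Lrp8, the receptor that takes up selenoprotein P in brain and testis and named here after its values were seen, was at 0.897, 2.02 and 0.971 CPM in WT and at 0.669, 0.298 and 0.618 in KO. All KO libraries lay below all WT libraries, with pairs that ranged from -2.758 to -0.422. Among tested genes 12.5% had KO wholly below WT. Because Lrp8 was named after its values were seen, nothing is read from its difference. Lrp1 was at 0.173, 0.123 and 0.228 CPM in WT and at 0.0878, 0.123 and 0.0668 in KO. Lrp2 was at 0.0299 CPM in every library.

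The cysteine-containing relatives of selenoproteins gave 4 tested genes of 9 listed in the files, none called by limma and 1 with an unadjusted p under 0.05. That was Fam213a, a peroxiredoxin-like redox protein. It was at 6.85, 7.18 and 7.03 CPM in WT and at 9.45, 9.02 and 9.20 in KO. Its difference was 0.39 ± 0.07 (limma adjusted p = 0.411), and it was higher in all 3 pairs, as were 15.2% of all tested genes. It was called when the replicate number was not in the model. Such a fit overlooks that the replicate effect had already been taken out of the values, so nothing is read from this call. Sephs1, the relative of Sephs2 with no selenocysteine, differed by -0.07 ± 0.34 and Msrb2 by 0.04 ± 0.43.

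The glutathione and thioredoxin partners of these enzymes, 22 tested genes of 24, had a median of 0.008, and limma called 0 of them. The 1 with an unadjusted p under 0.05 was Gclc, the catalytic subunit of the rate-limiting enzyme of glutathione synthesis. It differed by -0.31 ± 0.38 (limma adjusted p = 0.304) and was called without replicate 1, the only pair in which it was higher in KO. That fit called 136 of 10133 genes, so nothing is read from this call. Glrx2, a mitochondrial glutaredoxin, differed by 0.16 ± 0.09 and Prdx3, the mitochondrial peroxiredoxin, by 0.12 ± 0.22. In the pathway of NRF2, the transcription factor that induces Txnrd1 under oxidative stress, 0 of 15 tested genes were called, with a median of 0.009. Gclc is also on this list and is its only gene with an unadjusted p under 0.05; Mafg, a partner of NRF2, differed by -0.64 ± 0.10 near 1 CPM (limma adjusted p = 0.65), and G6pdx, which feeds NADPH to both systems, by 0.14 ± 0.05.

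Genes of lipid peroxidation and ferroptosis, the process that Gpx4 restrains, gave 0 called of 11 tested and 0 with an unadjusted p under 0.05, with a median of 0.059. The transferrin receptor Tfrc differed by 0.16 ± 0.08, the polyamine enzyme Sat1 by 0.13 ± 0.08 and Chac1, which degrades glutathione, by -0.38 ± 0.10. Of the partners of the ER selenoproteins 14 of 15 were tested, limma called 0, and 3 had an unadjusted p under 0.05. These were the ubiquitin ligase Syvn1 (-0.23 ± 0.25, limma adjusted p = 0.284), the ATPase Vcp (0.14 ± 0.08, adjusted p = 0.461) and the degradation channel protein Derl1 (-0.16 ± 0.09, adjusted p = 0.475). Syvn1 was called without replicate 3, in a fit that called 99 of 10133 genes, so nothing is read from this call. Over all 8 lists 0 of 86 distinct genes were called, and 8 had an unadjusted p under 0.05, or 9.30% beside 8.82% of all tested genes.

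Of 4 transcription factors known to drive Selenop in liver only Foxo1 was expressed highly enough to be tested. It differed by -0.27 ± 0.33 (SD, n = 3 pairs, limma adjusted p = 0.371), with 0.008, -0.186 and -0.642 in pairs 1 to 3. Foxo1 was called without replicate 1, in a fit that called 136 of 10133 genes, so nothing is read from this call. Sepp1 had its largest difference in pair 1 and Foxo1 in pair 3. The part of Foxo1 in the difference of Sepp1 was not tested. Hnf4a was at -5.063 log2 CPM in all 6 libraries, and Foxo3 and Ppargc1a lay below 1 CPM.

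The genes whose 3 paired differences lay nearest those of Sepp1, by the root mean square distance over the 3 pairs among all tested genes that are not members, were Rell1, Slfn8, Brwd3, Fhod1 and Dnaic2. Rell1, a relative of the TNF receptor family member RELT, lay at a distance of 0.025, with -0.800, -0.278 and -0.367. The other 4 lay at 0.074 to 0.108. The median over the tested genes was 0.561, and a gene with no difference in any pair would lie at 0.53. The 5 were taken as the nearest of all, so their small distances were fixed in advance. Rell1 was at 16.4, 13.7 and 14.1 CPM in WT and at 9.41, 11.3 and 10.9 in KO. None of the 5 was called, and the other 4 lay below 5 CPM.

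Selenoprotein P is known as a product of hepatocytes and of tissue macrophages, so markers of cells that could have come along in the sort were read beside it. Fewer cells of a type and less RNA per cell cannot be told apart in such bulk libraries. The 4 hepatocyte markers were at -5.063 log2 CPM in every library. Of 18 macrophage markers 17 are listed, and 3 had a mean of at least 1 CPM: Apoe, Cd68 and Lyz2. The list summed to 435 to 496 CPM per kb in WT and 453 to 517 in KO, nearly all of it Apoe, which differed by 0.07 ± 0.21. Without Apoe the other 16 summed to 9.00 to 12.9 CPM per kb in WT and 7.43 to 10.5 in KO, while Sepp1 alone was at 70.7 to 84.0 in WT and 49.0 to 58.3 in KO.

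The complement genes C1qa, C1qb and C1qc, which mark tissue macrophages, together reached at most 1.36 CPM per kb in any library, and Mertk, Cd163 and Fcgr1 at most 0.0263 each. The ranges of the summed markers overlapped between the groups with Apoe, without it and for the C1q genes together. C1qa and C1qb, both below 1 CPM, were lower in all KO libraries, and C1qc was not. Lyz2 was also lower in all KO libraries, at 2.25, 2.25 and 3.92 CPM in WT and 2.06, 2.06 and 1.18 in KO, with most of its difference in pair 3 (-1.727) and -0.133 in pair 1. The 16 markers without Apoe summed to 9.00, 9.10 and 12.9 CPM per kb in WT libraries 1 to 3 and to 10.5, 10.2 and 7.43 in the KO libraries. They were thus higher in KO in pairs 1 and 2 and lower in pair 3, while Sepp1 was lower in all 3. The largest of the 16 was Cd68, at 5.30 to 7.63 CPM per kb, with differences of 0.335, 0.184 and -0.524 in pairs 1 to 3. The part of macrophage RNA in the difference of Sepp1 was not tested.

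Other lists that moved with the groups were those of T cells (189 to 202 CPM in WT and 222 to 236 in KO, nearly all Lck, with Cd3e at -5.063 log2 CPM throughout) and of follicular dendritic and stromal cells (45.0 to 47.2 and 38.1 to 39.5 CPM, mostly Pecam1). The summed germinal centre markers were also lower in all KO libraries, as given above. The genes with the highest means on that list were Ms4a1 and Cd79a, which differed by -0.055 ± 0.121 and -0.085 ± 0.022 (SD, n = 3 pairs). Of all tested genes 27.7% had groups that did not overlap. The part of these lists in the difference of Sepp1 was not tested. Sums of the plasma cell list were 2990 to 3180 CPM in WT and 2830 to 3010 in KO, those of neutrophils at most 2.57 CPM and those of erythroid cells and platelets at most 3.68 CPM in any library. The dendritic cell list summed to 95.7 to 106 CPM in WT and 87.0 to 96.3 in KO, mostly Flt3.

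**Figure D5:**
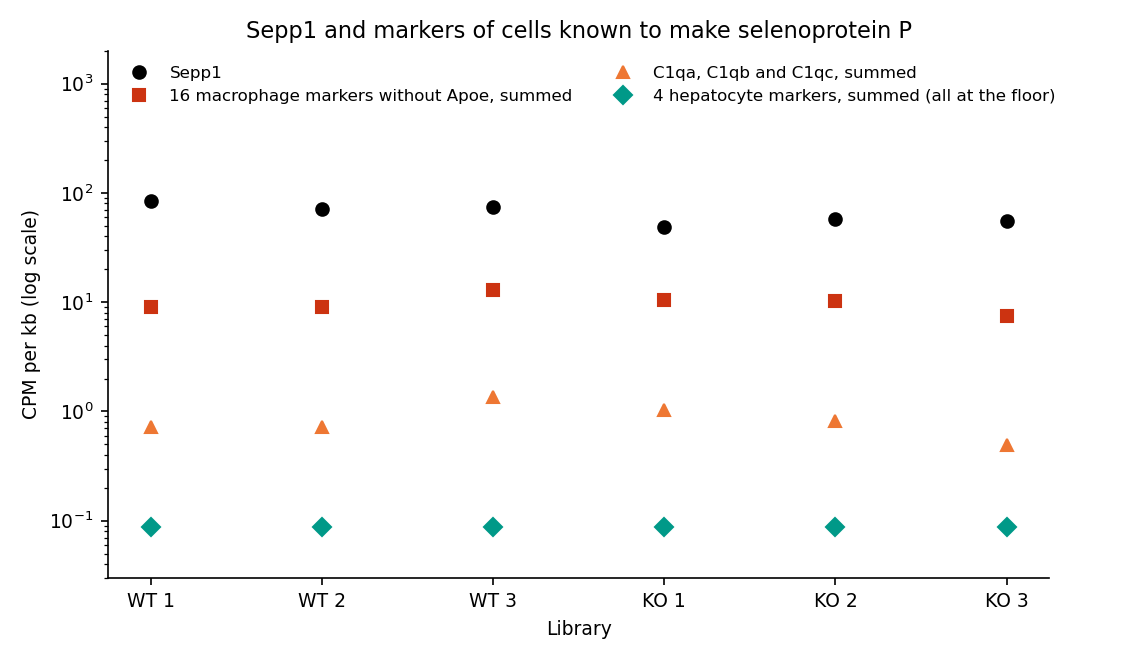
CPM per kb on a log axis in each of the 6 libraries for Sepp1 (black), for 16 macrophage markers without Apoe and for the C1q genes, each summed, and for 4 hepatocyte markers, which sit at the most frequent value of the files. Sepp1 lies at 49.0 CPM per kb or more in every library, above the 12.9 or less of the 16 macrophage markers summed without Apoe. With Apoe, not drawn here, the macrophage list summed to 435 to 517 CPM per kb, above Sepp1.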

How the data were processed

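Per the submitters' processing notes, the authors' tools included STAR 2.6.1a, featureCounts, limma, Subread 2.0.1, Trim Galore 0.6.5 and FastQC 0.11.7, and the build was mm10. Their settings and the strand were not stated there. The deposited values are log2 CPM, as their sums show, and between 10160 and 10173 genes per library reach 1 CPM. The equal WT plus KO sums show that a replicate effect had been removed, and with it any trace of a pairing of the samples. A block for the number was therefore part of the model. A fit with no block counts degrees of freedom that this removal had already used.

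Differences between KO and WT were tested with limma (version 3.58.1, R 4.3.3; trend and robust moderation, two-sided, Benjamini-Hochberg at 5% FDR over all genes) for genes with a geometric mean of at least 1 CPM and more than 1 distinct value. The fit has 2 residual and a median of 81.2 prior degrees of freedom. With 3 pairs, 0.25 is the smallest two-sided p of an exact test of 1 gene. The script was also run on simulated data. There the genes varied independently and their spread followed their level alone, so no error rate for these libraries is read from it. Values given for single genes are log2 differences. For genes near the most frequent value of the files, -5.063, these can misstate the change in either direction. Gpx3, for example, had 3.614, 1.452 and -1.229 in pairs 1 to 3.

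The members and all lists were chosen with earlier results of these data known. Named are the members, Basp1, all other selenoproteins, up to 3 genes with the smallest p per list, the 5 nearest to Sepp1 in pattern, and leading markers. Transcript lengths and selenocysteine codons came from GENCODE M21, synonyms from RefSeq (GRCm38.p6). Selv was not analysed here. Alternatives covered the block, filters, moderation, scaling and each replicate number left out.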

Additional observations from a re-analysis of the deposited data

How the results depend on the processing

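The mean difference of Sepp1 stayed negative in all 6 alternatives, from -0.59 to -0.34 with a replicate number left out and -0.40 as a difference of group medians with no replicate block. The 60 values of the 10 members under alternatives moved by less than 1 SD of the pairs. Leaving out 1 of 3 pairs cannot move a mean by that much, so nothing is read from this. Only Sepp1, Selk and Sephs2 kept their sign in all 6. The number of members with a negative mean, 6 of 10, was 3 to 7 with a replicate number left out and 5 as a difference of group medians. Sepp1 was called in 8 of 11 alternative fits, and not without replicate 1, with no replicate block or with no variance trend; the cause was not tested. The 27 genes called over all genes became 142 with no replicate block, 95 with no filter on the mean (14902 genes tested), 0 with no variance trend, 12 with non-robust moderation, and 11 to 136 with a replicate number left out. On the 8 lists the count of 0 became 1 with no replicate block (Fam213a), 1 with no filter on the mean (Upf1) and 0 to 3 with a replicate number left out. The counts with no replicate block come from a fit that overlooks the earlier removal of the replicate effect. In the order of levels 6 of 10 members kept their place with the coding length and 8 with the median transcript length. Depth is unknown, so counting error could not be given.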
